A study of Homo sapiens with 9 samples.

Results

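The 43 genes described here make up the machinery that brings nascent proteins to the endoplasmic reticulum (ER) and moves them into or through its membrane. They were listed by the role of their product, by a rule that uses no measured value, though earlier results of these data were known when the list was made. They comprise the signal recognition particle (SRP) and its receptor, the Sec61 channel with Sec62 and Sec63, the translocon-associated protein (TRAP) and TRAM subunits, the signal peptidase subunits and signal peptide peptidase, the ER membrane protein complex (EMC), the factors for tail-anchored proteins, and the nascent polypeptide-associated complex (NAC). Of these, 40 genes had a row in both deposited tables, out of 9221 genes in either table and 8775 in both. SRP19, EMC6 and BAG6 were not analysed here.

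The study examined how cells respond to compounds that selectively stall translation, largely through CRISPRi screens that are not used here. Its ribosome profiling, described here, asked at which proteins PF846 (PF-06446846) and its analog PF8503 stall the translating human ribosome. Huh-7 cells, an established human hepatocellular carcinoma line, were incubated for 1 hr with 1.5 μM PF8503, with 1.5 μM PF846 or with the 0.5% DMSO vehicle and no compound, and ribosome-protected fragments were sequenced from 3 replicates of each, 9 libraries in all. Every culture, vehicle included, was rinsed and lysed in cycloheximide, and the libraries measure 1 cell line at 1 dose and 1 time. The deposited tables give the authors' mean of normalized read counts per transcript and condition. Values for each library were not used here, so no value below carries a replicate error or a test, the depth of each library is unknown, and all differences are descriptions. RNA levels were not used either, so fewer transcripts and fewer ribosomes per transcript cannot be told apart. The library names in the labels end in lane numbers, none of which is shared between conditions, so lane effects and condition cannot be told apart. All 15 hepatocyte markers looked for had a row, with vehicle means of 490 to 212970, against 2 of 6 leukocyte markers (CD68 at 889 and LYZ at 7769) and 1 of 6 stromal and endothelial markers (PECAM1 at 170). LYZ thus lay within the range of the hepatocyte markers.

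Most secreted and membrane proteins carry a hydrophobic stretch near the amino terminus, a signal sequence or first transmembrane segment, which SRP binds as it leaves the ribosome. SRP hands the ribosome to its receptor on the ER, and the chain enters the Sec61 channel, where TRAP and TRAM assist it and signal peptidase cuts the signal sequence. The EMC inserts other membrane proteins, the GET pathway inserts those whose only membrane segment lies at the carboxyl end, and NAC binds chains on the ribosome and keeps SRP off those without a signal. Many of these factors are themselves membrane or secretory proteins, so they are at once parts of this route and its substrates.

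The coding starts of 8 members are shown because they belong to the transcripts that differed most from vehicle (SSR4, SEC63, EMC7, SSR1 and SEC61A1) or to partners in the same complex or close paralogs that differed less (SSR2, EMC10 and SEC61A2). Each line holds the first 40 codons, 5′ to 3′, of the canonical GENCODE 44 transcript on GRCh38, and capitals mark the 10 codons whose residues have the highest mean hydrophobicity on the Kyte-Doolittle scale.
SSR4: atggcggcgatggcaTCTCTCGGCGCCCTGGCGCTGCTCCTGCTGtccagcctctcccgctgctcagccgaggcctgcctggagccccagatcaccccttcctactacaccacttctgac
SEC63: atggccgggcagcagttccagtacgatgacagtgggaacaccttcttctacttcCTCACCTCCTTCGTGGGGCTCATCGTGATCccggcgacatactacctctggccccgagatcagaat
EMC7: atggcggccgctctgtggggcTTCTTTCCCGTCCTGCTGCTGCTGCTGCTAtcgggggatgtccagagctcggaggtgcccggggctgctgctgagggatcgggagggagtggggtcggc
SSR1: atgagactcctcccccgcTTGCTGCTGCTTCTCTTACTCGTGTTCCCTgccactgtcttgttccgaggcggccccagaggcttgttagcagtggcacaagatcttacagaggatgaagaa
SSR2: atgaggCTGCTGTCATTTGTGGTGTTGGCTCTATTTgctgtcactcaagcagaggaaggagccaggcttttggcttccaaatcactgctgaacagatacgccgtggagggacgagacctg
EMC10: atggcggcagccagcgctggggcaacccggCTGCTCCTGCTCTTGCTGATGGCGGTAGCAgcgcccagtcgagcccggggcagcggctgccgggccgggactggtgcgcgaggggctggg
SEC61A1: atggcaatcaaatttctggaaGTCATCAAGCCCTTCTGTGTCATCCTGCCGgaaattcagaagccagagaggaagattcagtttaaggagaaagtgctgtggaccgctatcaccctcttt
SEC61A2: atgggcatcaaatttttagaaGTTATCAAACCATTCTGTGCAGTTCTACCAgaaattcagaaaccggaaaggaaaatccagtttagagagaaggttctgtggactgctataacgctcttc

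SSR4 lies at chrX:153793516-153798499 on the plus strand, SEC63 at chr6:107867756-107958208 on the minus strand and EMC7 at chr15:34084017-34101862 on the minus strand. SSR1 lies at chr6:7268306-7347446 on the minus strand, SSR2 at chr1:156009048-156020951 on the minus strand and EMC10 at chr19:50476400-50490871 on the plus strand. SEC61A1 lies at chr3:128051641-128071705 and SEC61A2 at chr10:12129637-12169961, both on the plus strand. The start codon is in exon 1 of each transcript except SSR2, where it is in exon 2. In SSR4, EMC7, SSR1, SSR2 and EMC10 the capitals begin between codons 3 and 11, as in a classical signal peptide, and in SEC63 they begin at codon 19.

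With PF8503, ribosome-protected reads on most of these transcripts stood close to vehicle, and SEC63 and SSR4 stood apart below it. These were the 2 of 40 members lower by at least 0.5 on the log2 scale, and 0 members were higher by that much. Over the whole PF8503 table, 1.08% of 9157 transcripts were lower by at least 0.5 and 0.24% were higher. The median log2 ratio of the members was -0.02, against 0.01 over all transcripts, and 27 of 40 members (67.5%) lay within 0.1 of vehicle, beside 60.9% of all transcripts. At the smaller size of 0.2, SEC61A1, SSR1 and EMC2 joined SEC63 and SSR4, which made 5 members lower and 0 higher, beside 6.33% of all transcripts lower and 6.57% higher.

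With PF846, EMC7 was the 1 member lower by at least 0.5, and 0 were higher. Of all 8839 transcripts measured with PF846, 0.396% were lower and 0.0792% were higher by that much. The median log2 ratio of the members was -0.02, against 0.00 over all transcripts, and 36 of 40 members (90%) lay within 0.1 of vehicle, beside 73.1% of all transcripts. At 0.2 the count stayed at 1 member lower and 0 higher, beside 3.64% of all transcripts lower and 3.27% higher. The 2 comparisons share the vehicle libraries, so the values for both compounds are set side by side and their likeness was not measured.

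**Figure D1:**
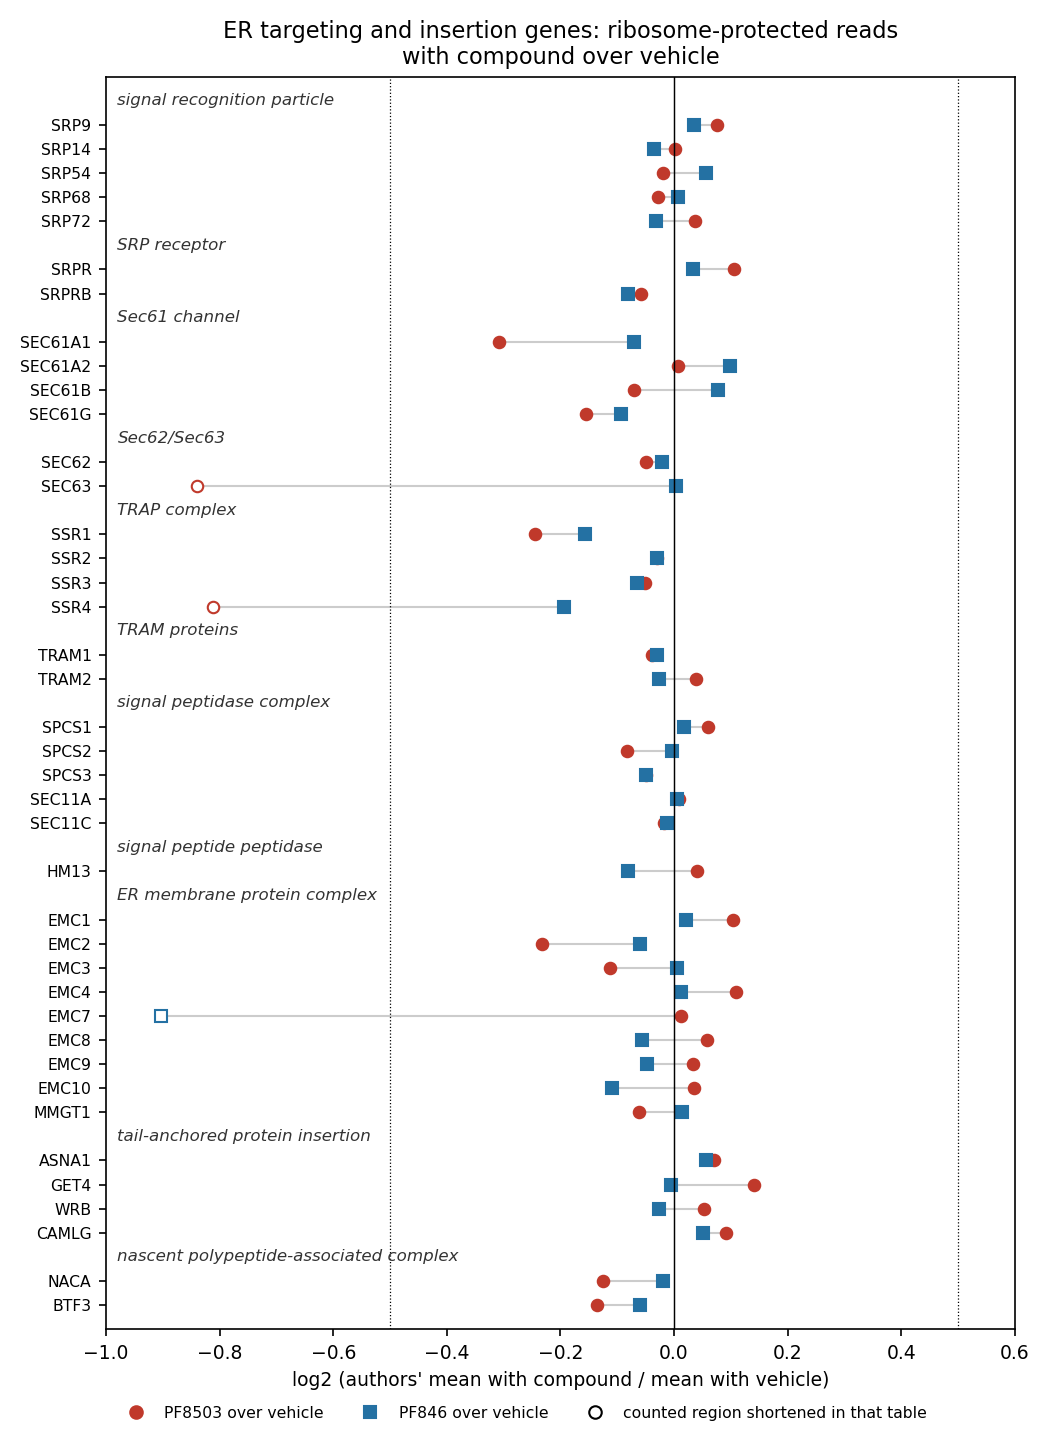
Log2 ratio of each compound's mean to the vehicle mean, both the authors' (horizontal axis), for the 40 members, ordered by role, with circles for PF8503 and squares for PF846. Open symbols mark a counted region shorter than that for the other compound, and dotted lines stand at 0.5 in either direction. A region shortened alike for both compounds would be drawn filled. SEC63 and SSR4 with PF8503 and EMC7 with PF846 lie beyond the lower line, and no member lies beyond the upper one.

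Which stretch of each transcript was counted differs between transcripts and bears on the most different members. In transcripts with a stall, reads were counted only 3′ of the codon at which the cumulative reads with compound differed most from those with vehicle. In the others, counting began 10 codons past the start. That boundary was set from the same reads as the ratio beyond it, so the ratio of such a transcript is not independent of the boundary, and how far the boundary moved it was not tested. Because the same vehicle libraries entered both tables, the ratio of the vehicle means is constant, at 1.09, wherever the counted stretch is the same, which held for 8641 of 8775 transcripts and for 37 of 40 members. The exceptions among the members were SEC63 and SSR4, counted over a shorter stretch in the PF8503 table, and EMC7, counted over a shorter stretch in the PF846 table. All 92 transcripts with the shorter stretch in the PF8503 table were below vehicle there, with a median log2 ratio of -0.58, and so were 40 of the 42 with the shorter stretch in the PF846 table, with a median of -0.57. Among the 37 members counted alike, log2 ratios ran from -0.31 to 0.14 with PF8503 and from -0.16 to 0.10 with PF846.

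The SRP subunits and the SRP receptor stood near vehicle with both compounds. SRP9 and SRP14 form the part of the particle that slows elongation, SRP54 binds the signal sequence, and SRP68 and SRP72 form a pair on the particle's RNA. With PF8503 the log2 ratios of these 5 ran from -0.03 (SRP68) to 0.07 (SRP9), and with PF846 from -0.04 (SRP14) to 0.06 (SRP54). SRP54, the subunit in contact with signal sequences, had means of 1271 with vehicle and 1254 with PF8503, and of 1163 with vehicle and 1210 with PF846 in the other table. SRPR, the receptor's alpha subunit (SRPRA in GENCODE 44), was at 0.11 with PF8503 and 0.03 with PF846, and SRPRB, the subunit that anchors it in the membrane, at -0.06 and -0.08.

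The Sec61 channel held the largest difference among members counted over the same stretch in both tables. SEC61A1 encodes the pore-forming alpha subunit. Its mean was 5894 with vehicle and 4763 with PF8503, a log2 ratio of -0.31, and 5395 with vehicle and 5140 with PF846, a log2 ratio of -0.07. The PF8503 mean was 80.8% of the vehicle mean. In the PF8503 table SEC61A1 ranked 255 of 9157 from the lowest ratio, and 24 of the 916 transcripts in its abundance class, 1 of 10 equal classes by vehicle mean. The central 95% of that class ran from -0.31 to 0.17, and SEC61A1 lay at its lower edge.

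SEC61A2, which encodes a close paralog of the alpha subunit, did not share that ratio. It had a mean of 255 with vehicle and 256 with PF8503 (log2 0.01), and of 233 with vehicle and 250 with PF846 (log2 0.10). The proteins share 445 of 476 residues, or 93.5%, and 36 of their first 40, while the coding sequences share 200 of 476 codons and 19 of the first 40, as the lines above show. A read that matched both genes was removed by the authors, since reads with several positions were discarded. SEC61B, the beta subunit, was at -0.07 with PF8503 and 0.08 with PF846, and SEC61G, the gamma subunit that clamps the channel, at -0.16 and -0.09.

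SEC62 and SEC63 serve the post-translational route, in which SEC63 recruits the ER chaperone BiP through its J domain. SEC63 had a mean of 1081 with vehicle and 604 with PF8503, a log2 ratio of -0.84 and 55.9% of the vehicle mean. In the PF846 table its mean was 1353 with vehicle and 1355 with PF846, a log2 ratio of 0.00. The stretch counted for PF8503 held 73.2% of the vehicle reads of the stretch counted for PF846, so the difference between the compounds was not computed for SEC63. Its PF8503 ratio ranked 33 of 9157 from the lowest. SEC62, its partner, was at -0.05 with PF8503 and -0.02 with PF846.

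All 4 TRAP subunits were below vehicle with both compounds, by amounts that ran from slight to large. Of all transcripts, 45.3% were below vehicle with PF8503 and 49.7% with PF846. Among the 40 members, 21 were below with PF8503 and 25 with PF846, and among 15 ER chaperones 6 and 12 were. TRAP sits beside Sec61 and assists chains whose signal sequences open the channel poorly. SSR4, the delta subunit, had a mean of 2904 with vehicle and 1654 with PF8503, a log2 ratio of -0.81, and of 2798 with vehicle and 2447 with PF846, a log2 ratio of -0.19. These means were 56.9% and 87.4% of vehicle. The stretch counted for PF8503 still held 95.0% of the vehicle reads of the other stretch.

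SSR1, the alpha subunit, was counted over the same stretch in both tables. Its mean was 2474 with vehicle and 2087 with PF8503, a log2 ratio of -0.25, and 2264 with vehicle and 2031 with PF846, a log2 ratio of -0.16. SSR2, the beta subunit, was at -0.03 with both compounds, and SSR3, the gamma subunit, at -0.05 and -0.06. Over the 4 subunits the median with PF8503 was -0.15, and with PF846 it was -0.11.

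The TRAP subunits also made up most of the members outside the spread of equally abundant transcripts with PF846. There SSR4 ranked 13 and SSR1 ranked 16 of 884 from the lowest in their abundance class, whose central 95% ran from -0.13 to 0.11. Together with EMC7 they were the 3 of 40 members below the central 95% of their class with PF846, and 0 were above. With PF8503 the members below it were 2, SEC63 and SSR4, and 0 were above. By the definition of that range, 2.5% of transcripts lie below it.

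TRAM1 and TRAM2, which assist chains at the Sec61 channel, were at -0.04 and 0.04 with PF8503 and at -0.03 for both with PF846. The signal peptidase subunits stood near vehicle as well. SEC11A and SEC11C, the catalytic subunits, were at 0.01 and -0.02 with PF8503 and at 0.00 and -0.01 with PF846. The accessory subunits SPCS1, SPCS2 and SPCS3 ran from -0.08 (SPCS2) to 0.06 (SPCS1) with PF8503 and from -0.05 (SPCS3) to 0.02 (SPCS1) with PF846. HM13, the signal peptide peptidase that cuts released signal peptides within the membrane, had a mean of 5181 with vehicle and 5331 with PF8503 (log2 0.04), and of 4742 with vehicle and 4481 with PF846 (log2 -0.08).

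**Figure D2:**
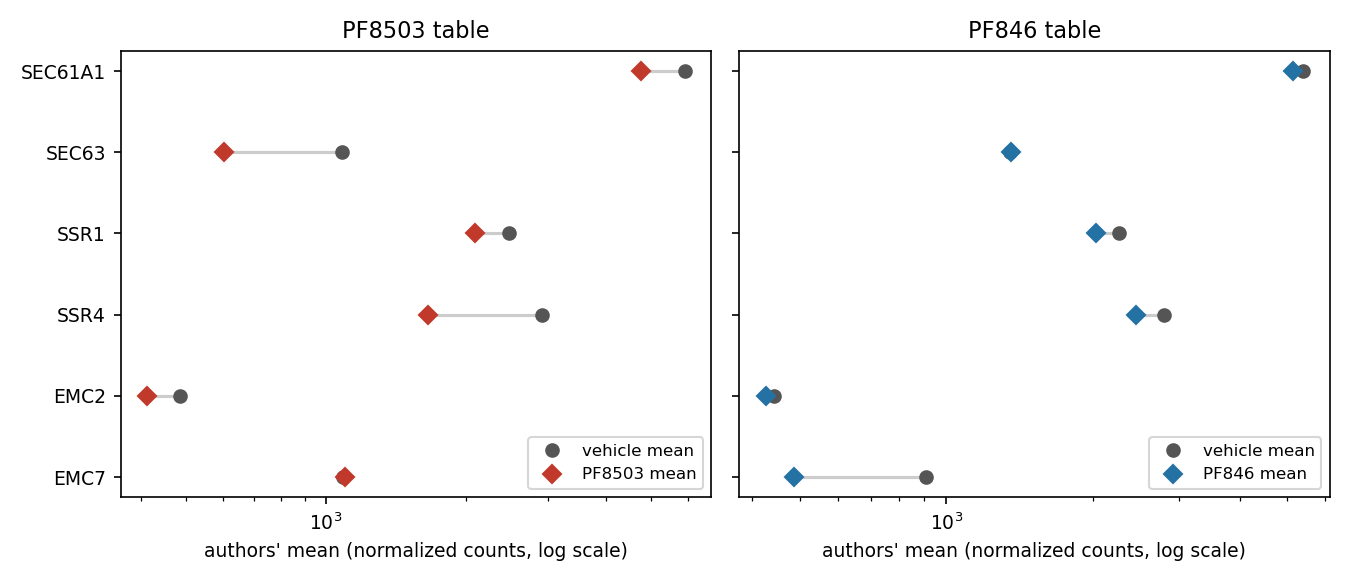
Authors' means of normalized counts (log scale) for the 6 members that differed from vehicle by at least 0.2 on the log2 scale with either compound, with vehicle as grey circles and the compound as diamonds, PF8503 at left and PF846 at right. The widest gaps are those of SEC63 (1081 to 604) and SSR4 (2904 to 1654) with PF8503 and of EMC7 (910 to 487) with PF846.

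In the EMC, 1 subunit differed from vehicle by at least 0.5, and it did so with PF846. EMC7 encodes a single-pass subunit with a domain in the ER lumen. Its mean was 910 with vehicle and 487 with PF846, a log2 ratio of -0.90 and 53.5% of vehicle. In the PF8503 table its mean was 1089 with vehicle and 1098 with PF8503, a log2 ratio of 0.01. The PF846 stretch held 91.3% of the vehicle reads of the PF8503 stretch. EMC7 ranked 14 of 8839 from the lowest ratio with PF846 and 1 of 884 in its abundance class. SEC63, SSR4 and EMC7 thus showed opposite orders, with the lower ratio under PF8503 for SEC63 and SSR4 and under PF846 for EMC7. For each of them the lower ratio came from the comparison with the shorter counted stretch. The order of the compounds therefore cannot be told apart from the counting, and the differences between the compounds were not tested.

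EMC2, a cytosolic scaffold subunit, had a mean of 485 with vehicle and 413 with PF8503, a log2 ratio of -0.23, and of 444 with vehicle and 426 with PF846, a log2 ratio of -0.06. With PF8503 it ranked 24 of 915 in its abundance class, inside the central 95% from -0.24 to 0.23. EMC3, which forms the membrane insertase core of the complex, was at -0.11 with PF8503 and 0.01 with PF846. EMC1, the largest subunit, was at 0.10 and 0.02, and EMC4 at 0.11 and 0.01. The paralogs EMC8 and EMC9, which take the same place in the complex, were at 0.06 and 0.03 with PF8503 and at -0.06 and -0.05 with PF846. EMC10, a subunit with a lumenal domain, was at 0.04 and -0.11, and MMGT1, also known as EMC5, at -0.06 and 0.01. The EMC median was 0.03 with PF8503 and -0.05 with PF846 over 9 subunits.

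The factors for tail-anchored proteins lay above vehicle with PF8503 in 4 of 4 cases, by small amounts, as did 5010 of all 9157 transcripts. GET4, part of the complex that hands substrates to ASNA1, was the highest of all members at 0.14, from a mean of 1185 with vehicle to 1306, and ranked 1245 of 9157 from the highest. ASNA1, the targeting ATPase (GET3 in GENCODE 44), was at 0.07, and the membrane receptor subunits WRB (GET1) and CAMLG were at 0.05 and 0.09. With PF846 these 4 ran from -0.03 (WRB) to 0.06 (ASNA1), with GET4 at -0.01. Both NAC subunits were below vehicle. NACA, the alpha subunit, was at -0.13 with PF8503 and -0.02 with PF846, and BTF3, the beta subunit, at -0.14 and -0.06.

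**Figure D3:**
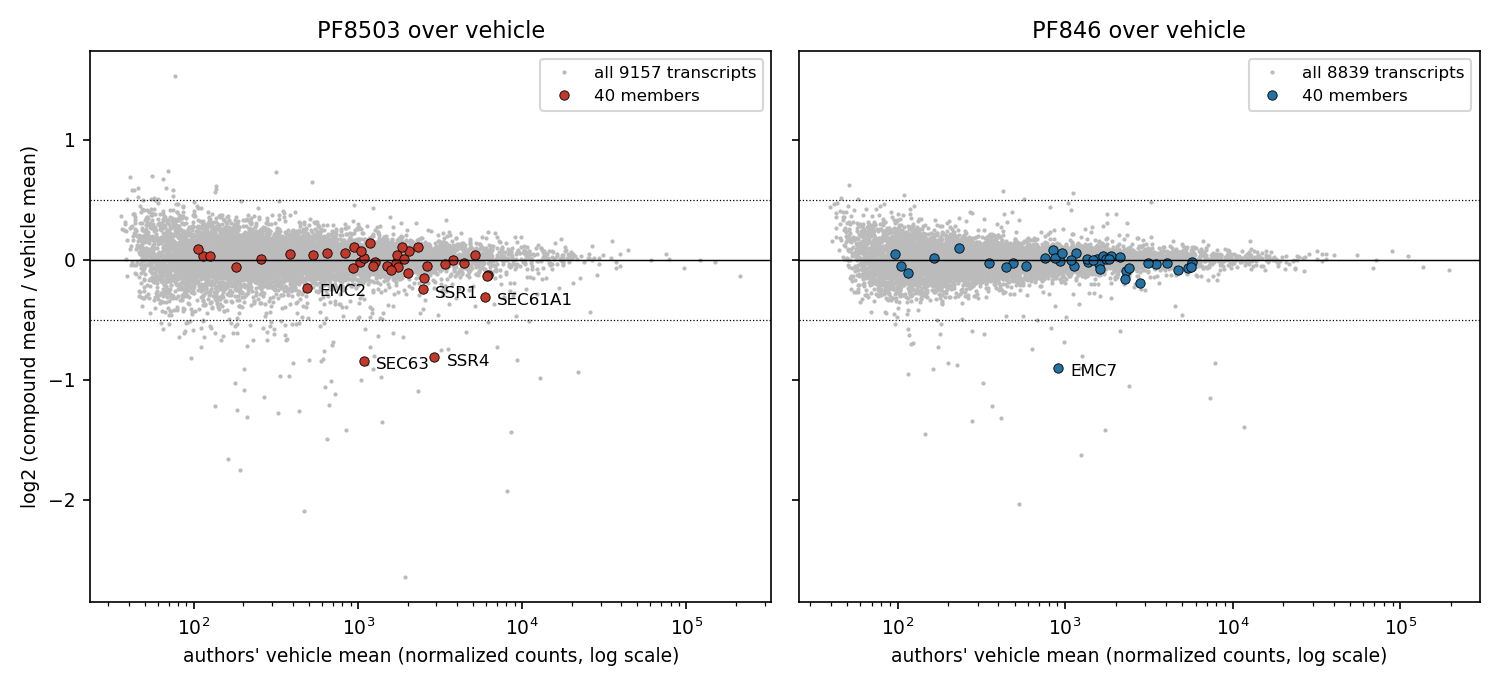
Log2 ratio of compound over vehicle (vertical axis) against the authors' vehicle mean (horizontal axis, log scale) for all transcripts in grey and the 40 members in colour, PF8503 at left and PF846 at right, with dotted lines at 0.5 in either direction. Members that differ by at least 0.2 are named. SEC63 and SSR4 with PF8503 and EMC7 with PF846 lie below the bulk of transcripts of like mean, and the other members lie among them or near their edge.

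The compounds were also set against each other directly at their matched dose and time, for the 37 members counted alike in both tables, after dividing by the constant 1.09 that relates the tables' scales. PF8503 is an analog of PF846. The median log2 ratio of PF8503 over PF846 was 0.01 over the members and 0.01 over all 8641 transcripts counted alike, and 17 members were lower with PF8503 and 20 higher. SEC61A1 was the 1 member lower by at least 0.2, at -0.24, and 0 were higher by that much, beside 4.46% of all transcripts lower and 5.87% higher. The SEC61A1 value lay inside the central 95% of all transcripts, which ran from -0.25 to 0.26. Neither these shares nor this range were matched for abundance. EMC2 followed at -0.17 and SEC61B at -0.15. At the upper end stood GET4 at 0.15, EMC10 at 0.14 and HM13 at 0.12. No interval can be given for any of these differences, so small values do not show that the compounds act alike on a member.

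Levels of different genes were compared per codon, as the authors' vehicle mean divided by the counted codons, taken as the coding length less 10 codons at each end. This length was assumed for every transcript. A stretch shortened for both compounds could be missed, and its value per codon would then be too low. The longer of the counted stretches was used for SEC63, SSR4 and EMC7. On this scale 36 of 40 members lay above the median of 0.875 reads per codon over 9114 genes. Subunits that work as a pair were close in some cases and apart in others. SRP14 had 32.7 and SRP9 31.0 reads per codon, a ratio of 1.05, and SRP68 had 2.80 and SRP72 2.67, also a ratio of 1.05. SPCS3 and SPCS2 had 7.67 and 7.75, a ratio of 0.990. With 1 mean per transcript, whether such neighbours differ cannot be tested.

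Other complexes spanned a wide range. In SRP, SRP9 and SRP14 stood well above SRP54, at 2.63 reads per codon, and the highest subunit exceeded the lowest 12.4-fold. In the Sec61 channel SEC61G had 52.4, SEC61A1 12.9 and SEC61B 12.2 reads per codon, while the paralog SEC61A2 had 0.558, a level 23.2-fold below SEC61A1. SEC61G rests on 48 counted codons, and short counted stretches make a per-codon value less sure. The TRAP subunits were the most even of the complexes with more than a pair of products after signal peptidase, from SSR1 at 9.30 through SSR3 at 15.9 and SSR4 at 20.0 to SSR2 at 27.2, a 2.93-fold range.

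SEC62 had 3.95 and SEC63 2.00 reads per codon, a 1.98-fold difference, and the SRP receptor subunits had 7.00 (SRPRB) and 2.98 (SRPR), a 2.35-fold difference. Within signal peptidase, SEC11A had 12.0, SPCS1 10.1 and SEC11C 5.95, and the range was 2.02-fold, while HM13 had 12.8. Paralogs that share a role differed from 2.02-fold (SEC11A over SEC11C) to 23.2-fold (SEC61A1 over SEC61A2). TRAM1 had 9.59 against 1.52 for TRAM2 and EMC8 had 3.38 against 0.605 for EMC9. The EMC ran from EMC10 at 0.518 and EMC9 through MMGT1 at 1.63, EMC2 at 1.75, EMC1 at 2.38, EMC7 at 4.90 and EMC4 at 5.81 to EMC3 at 8.32. In the GET pathway, GET4 had 3.86, ASNA1 3.18, WRB 2.5 and CAMLG 0.381. BTF3 had 32.9. NACA had 3.01 over the 2078 codons of its canonical transcript, which is uncertain, since the most common annotated length of 215 codons gives 31.8.

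**Figure D4:**
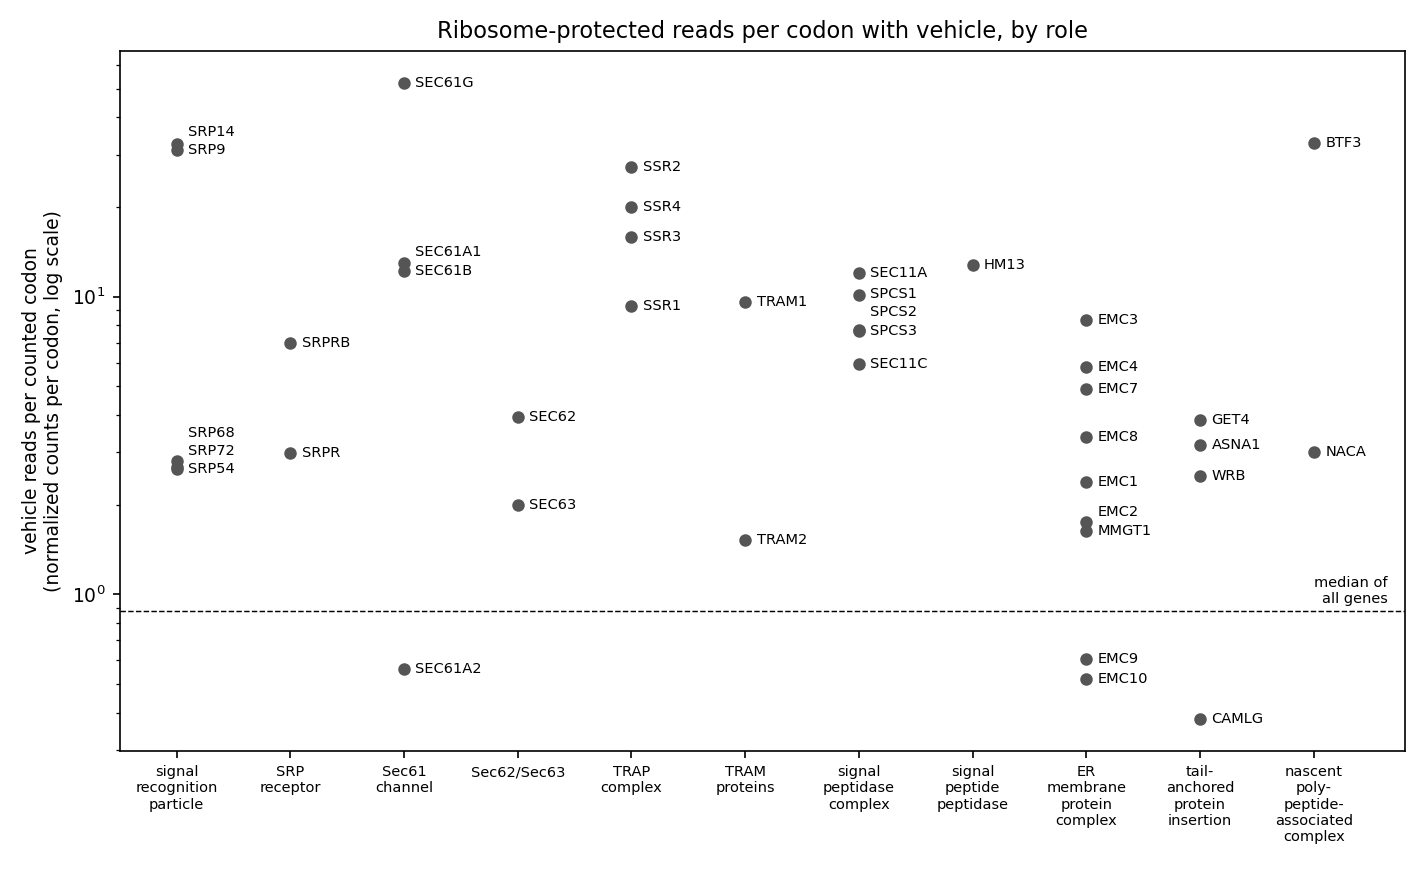
Authors' vehicle mean per counted codon (log scale) for the 40 members, grouped by role, 1 point per gene, with a dashed line at the median of all genes (0.875). SEC61G is highest at 52.4, and SEC61A2, EMC9, EMC10 and CAMLG are the 4 members below the median. The NACA point uses the long canonical transcript and would stand at 31.8 with the common short one.

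The members past 0.5 share a feature of their coding starts that the choice of genes did not use, though it was looked for after their values were known. A hydrophobic start was defined as a mean Kyte-Doolittle value of at least 2 over some 10 residues in a row among the first 40. It was present in 16 of 40 members (40%) and in 17.1% of all genes evaluated. SEC63 (2.59), SSR4 (2.52) and EMC7 (3.10) all have it. Of the other members that have it, SSR1 (3.20), SSR2 (3.02), EMC3 (3.12), EMC10 (3.25) and TRAM2 (3.27) had the highest values. Their log2 ratios ran from -0.25 to 0.04 under PF8503 and from -0.16 to 0.01 under PF846. Among these 5, SSR1 was lowest with both compounds. The rest were SSR3, TRAM1, SPCS1, SPCS3, SEC11A, EMC1, MMGT1 and WRB. Their ratios ran from -0.06 (MMGT1) to 0.10 (EMC1) under PF8503 and from -0.06 (SSR3) to 0.02 (EMC1) under PF846. SEC61A1, at 1.94, and EMC2, at 0.29, are below the limit. In SEC61A1 a run that begins at residue 37 reaches 3.07, but it ends past the first 40 residues and was not counted. SEC61A2 has a run of the same value at the same place, and its ratios were 0.01 with PF8503 and 0.10 with PF846. At 1.67 within the first 40 residues, SEC61A2 is also below the limit.

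Split this way, members with a hydrophobic start (16) had a median log2 ratio of -0.03 for each compound, and the remaining 24 had medians of -0.01 for PF8503 and -0.02 for PF846. Across all transcripts, the medians with and without a hydrophobic start were 0.03 and 0.01 with PF8503, and -0.01 and 0.00 with PF846. By at least 0.2 with PF8503, 128 of 1549 with such a start were lower and 137 higher, beside 439 and 462 of the other 7549. With PF846 these counts were 84 and 38 of 1496, beside 237 and 236 of 7287. In the lower tail, 2.58% of those with a hydrophobic start and 0.755% of the others were lower by at least 0.5 with PF8503, and 1.40% and 0.192% with PF846. These are descriptions without a test, and transcripts counted over a shortened stretch are among them.

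**Figure D5:**
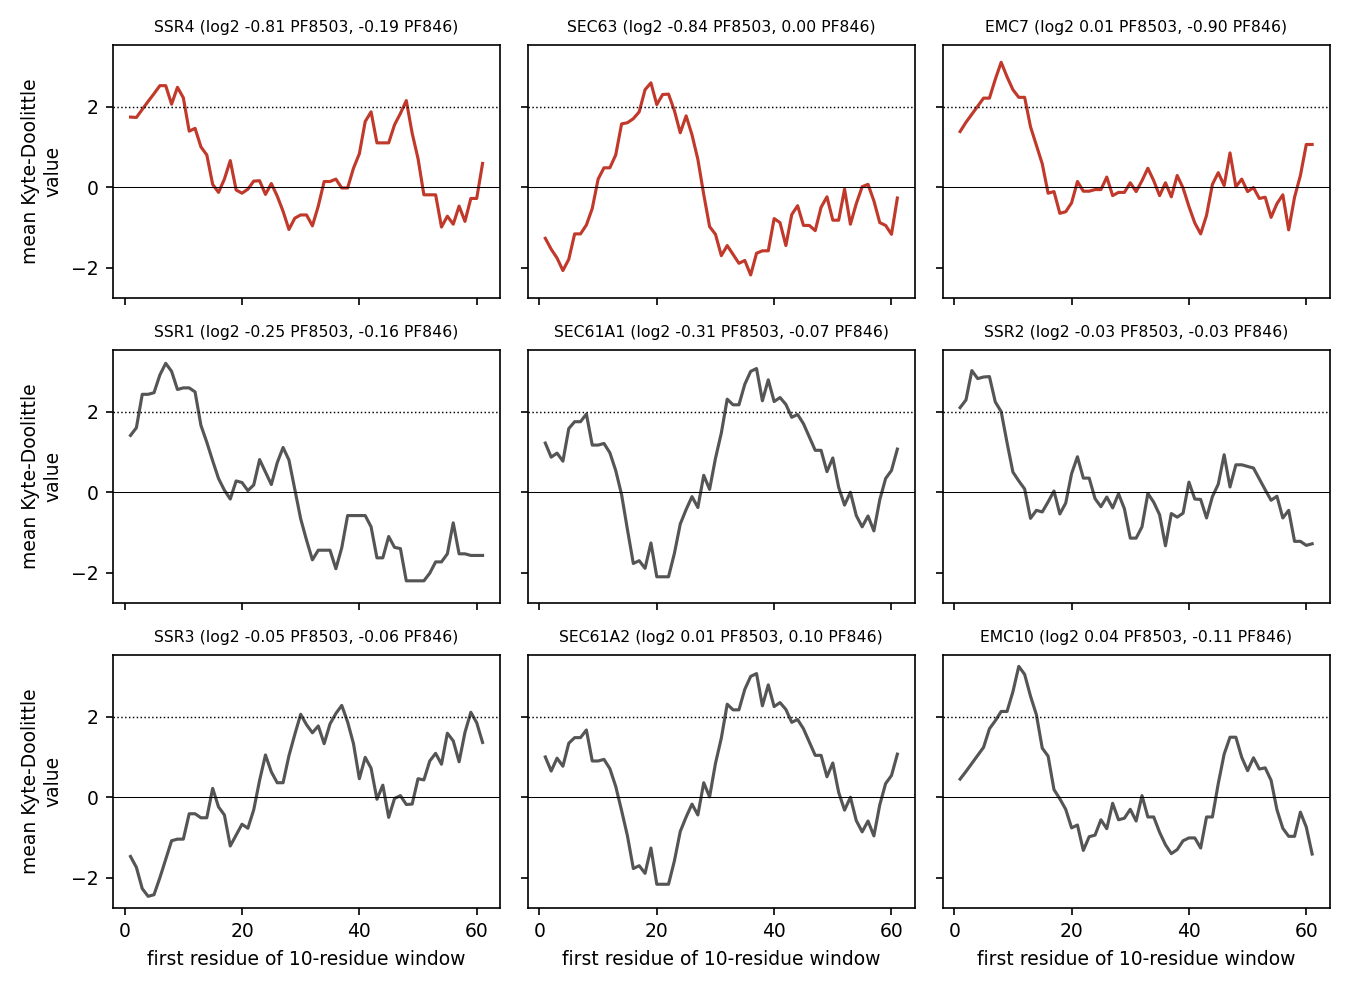
Mean Kyte-Doolittle value (vertical axis) of each run of 10 residues against its first residue (horizontal axis) for 9 members, with the log2 ratios of both compounds above each panel, red lines for the members past 0.5 and a dotted line at 2. SSR4, SEC63 and EMC7 have a peak above 2 near the start, as do SSR1, SSR2 and EMC10, whose ratios are nearer to vehicle. The other panels pass 2 further on. SSR3 reaches 2.06 at residue 30 and 2.28 at residue 37, and SEC61A1 and SEC61A2 both reach 3.07 at residue 37.

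Other insertion factors outside the 43 genes lay mostly near vehicle. Of 12 looked for, 9 had a row, with medians of 0.02 with PF8503 and -0.02 with PF846, and 0 differed by 0.5. UBL4A, a partner of GET4 in handing over tail-anchored proteins, was highest, at 0.25 with PF8503 and 0.15 with PF846, and SGTA, which first binds such proteins, was at -0.01 and -0.04. The factors that sit with Sec61 at multi-pass proteins comprised TMEM147 at 0.16 and 0.06, CCDC47 at 0.11 and 0.06, NCLN at 0.08 and -0.02, NOMO2 at 0.02 and 0.06 and TMCO1 at -0.05 and -0.09. NOMO2 has near-identical copies, so its value is uncertain. TMEM208 was at 0.01 and -0.04 and BTF3L4, a relative of BTF3, at -0.03 and -0.12.

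Among the enzymes and chaperones that act on the chain after the channel, DAD1 and TXNDC5 passed 0.5. Of all transcripts, 1.08% were lower by at least 0.5 with PF8503 and 0.396% with PF846. Of 11 oligosaccharyltransferase subunits with a row, 1 was lower with each compound. It was DAD1, at -1.35 with PF8503 (1395 to 547) and -0.69 with PF846 (985 to 611), and the medians of the list were 0.04 and -0.03. Of 15 ER chaperones and folding enzymes, TXNDC5, a protein disulfide isomerase, was lower past 0.5 with PF8503, at -0.53, and was at -0.14 with PF846. The medians of that list were 0.02 and -0.04. The vehicle means of DAD1 and of TXNDC5 departed from the constant ratio between the tables, so their counted stretches differed between the tables. For DAD1 the stretch was shorter in the PF846 table. For TXNDC5 it was shorter in the PF8503 table, with vehicle means of 416 there and 471 in the PF846 table. The difference between the compounds was not tested for either gene.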

How the data were processed

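Ribosome-protected fragments of Huh-7 cells were sequenced by the study in 3 replicates for each of 3 conditions. Per its methods, the authors trimmed adapters, discarded reads of ribosomal RNA and mapped what was left with Bowtie (version not given in the sources used here) to canonical coding transcripts of GENCODE 24 on GRCh38, keeping reads with 1 position. They counted reads 3′ of a stall where the Z score was at least 2, or else past codon 10, omitted the final 10 codons, and required over 30 counts. The deposited signal is the authors' mean of counts divided by DESeq size factors, 1 value per transcript and condition. The deposited ratio (fold change), log2 and p-value columns hold the authors' own comparisons and were not used.

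Here the log2 of the compound mean over the vehicle mean was taken without a pseudocount, and sizes of 0.5 and 0.2 were counted for the members and for the whole table. No single-library values entered, so there is no n, interval or test. Vehicle means that departed from their constant ratio by over 0.002 (log2) were read as a different counted stretch. Symbols matched GENCODE 44 for 9176 of 9221 genes and 43 of 43 members. Genes were named by a rule: all members by role, in full where the size was at least 0.2 or the stretch differed, and other lists by counts and by genes past 0.5, except the insertion factors, all named. Members, lists and rules were chosen with earlier results of these data known. Scripts (Python 3.11.15, pandas 2.3.3, numpy 2.4.6, biopython 1.88) were tested on simulated data. Which numbered libraries entered the means is not settled, since the study's script and the labels number replicates differently. The labels spell PF846's long name in several ways, taken here as 1 compound.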

Additional observations from a re-analysis of the deposited data

How the results depend on the processing

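No paired analysis was possible because the deposited tables hold 1 mean per condition, and for the same reason no replicate could be left out and no replicate error could be computed. With a threshold of 0.2 in place of 0.5, 5 members were lower with PF8503 in place of 2. With a threshold of 1, 0 members were lower with PF8503 and 0 with PF846. Over transcripts counted along the same stretch in both tables the counts were also 0 and 0, since that setting leaves out SEC63, SSR4 and EMC7. Without members of under 100 counted codons, the Sec61 highest-to-lowest ratio per codon was 23.2 in place of 93.8, since SEC61B and SEC61G drop out. The other 66 alternative values of the main counts, medians and per-codon ranges stayed within 1.5 times, for counts and per-codon ranges, or within 0.1 on the log2 scale, for medians, and 0 reversed. For the 6 members described in full, the 54 alternative values (centring on the table's median, scaling by summed means, a pseudocount of 5, a minimum vehicle mean of 100, or the same stretch where it applied) kept their direction except EMC7 with PF8503, which went from 0.01 to -0.00037 when centred on the median, and the greatest shift was 0.0127. Small differences cannot be judged without library values, least of all for transcripts of low mean such as CAMLG, EMC9 and EMC10.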
